A study of Mus musculus with 19 samples.

Results

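The aortas with the strongest signal of cell division were set against those with the weakest, over all 19 RNA libraries of abdominal aortas from mice with experimental aneurysm. The libraries were ranked by Mki67, the gene of the Ki-67 protein that coats chromosomes in dividing cells, as CPM, the count of a gene scaled by all counts in genes of its library. The 6 libraries with the highest Mki67 formed the high set and the 6 with the lowest the low set, so that 12 of 19 libraries were members, and the other 7 were kept as a middle set. All mice were male, lacked Apoe (Apoe-/-, on C57Bl/6J) and received angiotensin II (AngII) from an osmotic pump implanted at 8 to 10 weeks of age, which gives aneurysms in such hypercholesterolemic mice. How long these aortas had been infused when they were taken, 7 or 28 days in the study, is not given for these libraries in the sources used here. The paper assigns mice killed at day 7 to analyses of tissue, and those of day 28 to survival and the course of disease. D-3 IR mice (7 libraries) had received 1 Gy of X-rays to the whole body 3 days before the infusion started, D+1 IR mice (7 libraries) the same dose 1 day after its start, and control mice (5 libraries) no irradiation, and all had been under the same anesthesia. No library was made without AngII, so that every level below is one of infused aortas, and each library came from the abdominal aorta of 1 mouse, in which all cell types of the wall and its surroundings were measured together.

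Cells that divide pass through a fixed order of states. D cyclins with their kinases release E2F transcription factors, which drive the genes of DNA replication in S phase, and the MuvB core with B-MYB and FOXM1 then drives the genes of mitosis. In the resting wall few smooth muscle cells divide, and in AngII-infused aortas smooth muscle cells, adventitial fibroblasts, endothelial cells and leukocytes are all known to enter the cycle, so that a cell cycle transcript in whole tissue does not name its cell.

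The high set was made up of D-3 IR 13 with 67.6 CPM of Mki67, D+1 IR 20 with 66.3, control 6 with 47.0, control 9 with 47.0, D-3 IR 15 with 40.8 and D-3 IR 10 with 37.7. The low set held control 4 with 14.4 CPM, D+1 IR 17 with 11.5, D+1 IR 3 with 9.48, D+1 IR 19 with 5.60, control 8 with 4.15 and D+1 IR 2 with 3.62. The sets had been selected on these values, which are therefore a description. Just outside the high set stood control 5 with 30.8 CPM, and just outside the low set D-3 IR 16 with 21.9 CPM. By treatment, the high set held 3 D-3 IR, 1 D+1 IR and 2 control libraries, the middle set 4 D-3 IR, 2 D+1 IR and 1 control library, and the low set 0 D-3 IR, 4 D+1 IR and 2 control libraries. Every D-3 IR library thus lay in the high or the middle set, while control and D+1 IR libraries were found in all 3 sets. Fisher's exact test of treatment against set did not pass the threshold (two-sided p = 0.2084).

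**Figure D1:**
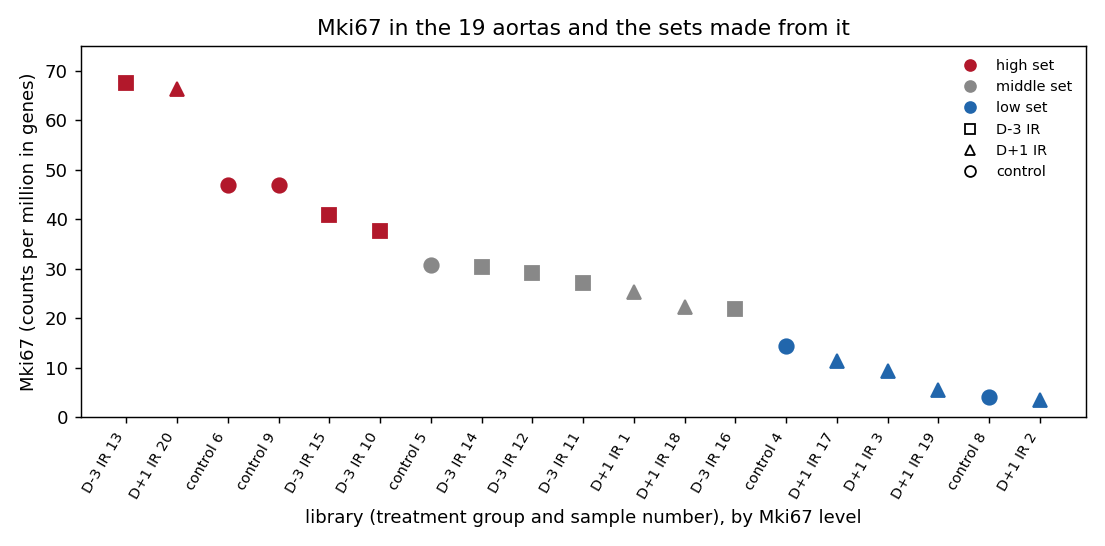
Mki67 in CPM over all counts in genes (vertical axis) in each of the 19 libraries, ordered by level (horizontal axis). Colors give the set and symbols the treatment: the high set runs from 37.7 to 67.6 CPM, the middle set from 21.9 to 30.8 and the low set from 3.62 to 14.4.

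Depth did not separate the sets, with 26729225 to 87410421 counts in genes in the high set and 25839001 to 79066549 in the low set. Mitochondrial transcripts took 4.49% to 14.4% of the counts in the high set and 4.50% to 22.9% in the low set. Smooth muscle genes marked all libraries as vessel wall, with Acta2 at 1510.1 to 18521 CPM in the high set and 698 to 10948 CPM in the low set. Some libraries stood apart by other tissue: skeletal muscle genes summed to 8786 CPM in D-3 IR 10 of the high set, and B cell genes such as Cd79a reached 175 CPM there and 101 CPM in D+1 IR 3 of the low set. Without both libraries 481 genes were higher and 244 lower in the high set, of which 134 higher genes belonged to the cell cycle lists. D-3 IR 15 of the high set was as rich in skeletal muscle genes, with a mean of 7.01 log2 CPM beside 7.04 in D-3 IR 10 and at most 5.07 in the other 17 libraries. Without these 3 libraries 763 genes were higher and 622 lower, of which 147 higher genes belonged to the cell cycle lists. Both settings were chosen after the data were seen. Fewer libraries can only part more genes, so that these counts do not show what part the other tissue had. D+1 IR libraries 1, 2 and 3 carried another number in their file names than the other 16, and 2 of these 3 were in the low set.

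The markers followed Mki67. Top2a, the topoisomerase that untangles DNA strands before chromosomes separate (ENSMUSG00000020914.18, chr11:98992943-99024189), showed 74.6, 57.6, 58.0, 52.99, 44.3 and 30.6 CPM in the 6 high libraries in the order above, against 19.0, 11.7, 8.88, 5.27, 4.81 and 4.82 CPM in the 6 low libraries (here and below, CPM scaled by TMM factors). The sets did not overlap, and the level was 5.68 ± 0.44 in the high set and 2.99 ± 0.81 in the low set (mean log2 CPM ± SD, n = 6 each), a difference of 2.69. Prc1, which bundles the microtubules of the central spindle (ENSMUSG00000038943.17, chr7:80294450-80316259), showed 29.5, 8.94, 25.8, 23.9, 17.7 and 7.03 CPM in the high libraries, against 6.82, 5.04, 1.38, 2.42, 1.79 and 1.58 CPM in the low ones. Its sets barely parted, since D-3 IR 10 stood only 1.03-fold above control 4. Mki67 itself (ENSMUSG00000031004.9, chr7:135689784-135716361) was 5.59 ± 0.37 in the high set and 2.86 ± 0.77 in the low set (mean log2 CPM ± SD, n = 6 each), which only restates the choice. Positions are those of GENCODE M21 on GRCm38.

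Inside treatments the order of Top2a was fixed by its sets, which did not overlap, so that its values there are a description. Top2a was 58.0 and 52.99 CPM in the high control libraries, against 19.0 and 4.81 CPM in the low control libraries. It was 57.6 CPM in the only high D+1 IR library, against 11.7, 8.88, 5.27 and 4.82 CPM in the low D+1 IR libraries. The 199 tested genes of the cell cycle lists had a median difference of 1.47 within control libraries alone and of 1.90 within D+1 IR libraries alone. These libraries had been chosen by Mki67, so that both medians are a description as well. D-3 IR had no low library, so that no such value exists for it, and across the 12 members the sets and the treatments can be told apart only in part.

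Over the 17616 genes tested beside Mki67, 284 (1.61%) were higher in each high library than in every low one, and 150 (0.851%) were lower in each. A gene is called higher or lower below only when its sets did not overlap in this way. Each count of a list below is to be read beside these shares of 1.61% and 0.851% of all genes. No p is given for any of these, because the libraries had been chosen by a cell cycle gene, and genes that vary with it were bound to part. Of the 284 higher genes 122 belonged to the 11 cell cycle lists, whose 199 tested members otherwise included 77 with overlapping sets, and 0 of the lower genes did. The median difference of these 199 genes was 1.49 on the log2 scale, with 191 above 0, beside a median of -0.02 and 8501 genes above 0 over all 17616. In the higher genes the mean of the middle set lay at a median of 69.9% of the log2 distance from the low to the high mean, a description of genes chosen on the outer sets. The counts moved by over 1.5 times when 1 library was left out in some cases: 475 genes were higher without D+1 IR 17, 465 without D-3 IR 15 and 431 without D-3 IR 10, and 407 were lower without D-3 IR 15, 270 without D+1 IR 17 and 234 without D+1 IR 19. When each treatment's mean was first taken away, 84 genes were higher and 21 lower, so that 80% of such genes were higher, beside 65.4% as first counted.

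The 10 higher genes with the widest gap between the lowest high and the highest low library were Esco2, Plk1, Cdk1, Fignl1, Kif15, Kif4, Knstrn, Clspn, Ttk and Cdca3. They cover most of the cycle. Esco2, which acetylates cohesin so that sister chromatids hold together, was 2.74 to 5.66 CPM in the high set (median 3.07), against 0.207 to 0.663 CPM in the low set (median 0.507). Fignl1, an ATPase of homologous recombination, was 4.11 to 7.27 CPM in the high set (median 5.60), against 0.898 to 1.49 CPM in the low set (median 1.27). Kif15 and Kif4, kinesins that keep spindle poles apart and shape condensed chromosomes, differed by 2.39 and 2.71. Knstrn, a spindle protein of kinetochores, differed by 2.44, Clspn, the adaptor that activates the checkpoint kinase CHK1, by 2.43, and Cdca3, a substrate of the anaphase promoting complex, by 2.33. In each of the 10 the lowest high library stood at least 2.46-fold above the highest low one.

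DNA replication genes were higher in part, 17 of 41 (41.5%, beside 1.61% of all genes) with a median difference of 0.84. Mcm10, which helps to start the replicative helicase, was 1.62 to 6.66 CPM in the high set (median 2.78), against 0.277 to 1.18 CPM in the low set (median 0.701), a difference of 2.20. Uhrf1, which brings DNA methylation to newly made strands, was 8.49 to 23.3 CPM in the high set (median 12.5), against 1.29 to 5.33 CPM in the low set (median 4.45). Mcm2, a subunit of the helicase that resting cells that can still divide also keep, was higher with a difference of 1.09, and Pcna, the sliding clamp of the polymerases, had 48.7 to 70.2 CPM in the high set (median 62.7), against 31.4 to 53.6 CPM in the low set (median 38.1), so that its sets overlapped. Gmnn, the inhibitor of origin licensing, had overlapping sets too and a difference of -0.10. Mcm2, Pcna and Gmnn were picked after their values were seen.

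In nucleotide synthesis for DNA 2 of 10 genes were higher, Rrm2 and Tk1. Rrm2, the subunit of ribonucleotide reductase made in S phase, was 12.3 to 25.8 CPM in the high set (median 16.7), against 2.71 to 5.05 CPM in the low set (median 3.94), a 4.52-fold difference. Tk1, the thymidine kinase of S phase, was 10.6 to 23.3 CPM in the high set (median 16.9), against 2.89 to 6.25 CPM in the low set (median 4.40). Tyms, thymidylate synthase, had 7.08 to 21.9 CPM in the high set (median 12.4), against 3.73 to 8.26 CPM in the low set (median 5.63), with overlapping sets, and the other 7 genes of the list overlapped as well, with differences down to -0.194.

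Cyclins and kinases parted by phase. Of the 13 cyclins and kinases of S phase and mitosis 10 were higher (median difference 1.80). Cdk1, the kinase of mitotic entry, was 12.0 to 35.2 CPM in the high set (median 23.0), against 1.66 to 4.38 CPM in the low set (median 3.10). Ccna2, cyclin A2 of S phase and early mitosis, was 10.4 to 30.2 CPM in the high set (median 21.9), against 2.00 to 5.89 CPM in the low set (median 2.75), and Ccnb1, cyclin B1, was 4.66 to 15.7 CPM in the high set (median 13.1), against 1.08 to 3.68 CPM in the low set (median 1.80). The D cyclins and their kinases, which act before the cell commits to division, differed far less: 1 of 5 was higher, with a median of 0.46. That gene was Cdk4, with 64.7 to 135 CPM in the high set (median 77.5), against 47.7 to 63.3 CPM in the low set (median 52.7), a 1.58-fold difference and a gap of 1.02-fold. Ccnd1, cyclin D1, chosen for mention after its values were seen, had 20.5 to 61.7 CPM in the high set (median 34.6), against 25.5 to 43.3 CPM in the low set (median 34.1), with overlapping sets.

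Genes of mitosis followed, with counts that differed by list. Among the mitotic kinases and the spindle checkpoint 17 of 19 were higher, with a median difference of 2.26. Plk1, the kinase of spindle assembly and mitotic exit, showed 14.9, 25.9, 13.9, 16.4, 8.71 and 9.48 CPM in the high libraries, against 2.95, 2.75, 3.01, 2.03, 0.832 and 1.53 CPM in the low ones. D+1 IR 20 was thus the highest for Plk1, while D-3 IR 13 led for Mki67 and Top2a. Birc5, survivin of the chromosomal passenger complex, was 6.93 to 34.1 CPM in the high set (median 10.9), against 0.740 to 3.46 CPM in the low set (median 1.34), a 7.58-fold difference. Ttk, the kinase that starts the spindle checkpoint, differed by 2.68.

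Spindle motors and midbody proteins had the widest median difference of the 11 cell cycle lists, 2.42, with 25 of 28 higher. Hmmr, a spindle protein that binds hyaluronan at the cell surface, was 4.46 to 19.1 CPM in the high set (median 13.4), against 0.402 to 2.95 CPM in the low set (median 1.16), a 9.10-fold difference, the widest of all 199 cell cycle genes. Kif18b, a kinesin that shortens microtubules, differed by 2.99, and Ckap2l, a protein of spindle poles, by 2.85. Anln, the actin binder of the contractile ring, was among the 3 that overlapped, with 18.1 to 122 CPM in the high set (median 77.2), against 5.36 to 32.1 CPM in the low set (median 25.8). That list's lowest member differed by 0.398, so that all 28 had positive differences.

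At the centromere and kinetochore 16 of 25 genes were higher (median difference 1.73). Cenpf, of the outer kinetochore, was 7.49 to 22.9 CPM in the high set (median 15.5), against 0.925 to 5.12 CPM in the low set (median 2.02), Spc25, of the NDC80 complex that holds microtubules, was 5.94 to 20.0 CPM in the high set (median 11.5), against 0.969 to 2.43 CPM in the low set (median 1.62), and Ska1, which follows shortening microtubules, differed by 3.10 with no count in control 8. Zwint, of the KNL1 complex, went the other way, with 44.0 to 143 CPM in the high set (median 82.8), against 89.7 to 509 CPM in the low set (median 222). Its sets overlapped, and it was the only member of the list with a negative difference (-1.39). Zwint was highest in control 8 with 509 CPM and in D+1 IR 17 with 419 CPM, the same libraries in which Th, the noradrenaline enzyme of sympathetic neurons, was highest with 781 and 701 CPM. The part of neuronal tissue in the level of Zwint was not tested. Zwint and Th were picked after their levels were known.

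Condensins and chromosome structure had 12 of 17 genes higher, with a median of 1.18. Ncapg, a condensin subunit, differed by 2.46. Lmnb1, a lamin of the nuclear envelope that senescent cells lose, was 21.8 to 103 CPM in the high set (median 31.7), against 6.38 to 19.6 CPM in the low set (median 8.36), and control 9, which also had the highest sum of neutrophil genes, stood highest. Among substrates and regulators of the anaphase promoting complex 6 of 12 were higher. Ube2c, its ubiquitin carrier, was 13.7 to 32.3 CPM in the high set (median 27.0), against 2.10 to 7.41 CPM in the low set (median 3.12), and Cdc20, its activator in mitosis, was 13.3 to 33.6 CPM in the high set (median 27.6), against 1.94 to 7.11 CPM in the low set (median 3.27). The complex's own subunits, which resting cells also make, had overlapping sets, and Anapc5 and Cdc27 were close to equal.

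Transcription factors of the cycle were higher in 5 of 11 genes, Foxm1, E2f8, Mybl2, E2f1 and Rbl1. Foxm1, the forkhead factor of mitotic genes, was 7.66 to 23.8 CPM in the high set (median 16.0), against 1.70 to 5.18 CPM in the low set (median 3.19), a difference of 2.35. Mybl2, which encodes B-MYB, was 1.49 to 3.65 CPM in the high set (median 2.39), against 0.397 to 1.31 CPM in the low set (median 0.707), and E2f8, a repressor that closes S phase, differed by 2.25. The other factors of the list, E2f7 among them, had overlapping sets, with differences down to 0.248 in its lowest member.

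Homologous recombination and repair genes of S phase were higher in 11 of 18, with a median of 1.50. Exo1, an exonuclease of repair, was 1.38 to 2.86 CPM in the high set (median 2.02), against 0.123 to 0.852 CPM in the low set (median 0.221), a difference of 2.55. Chek1, the kinase of the replication checkpoint, chosen after its values were seen, had 1.34 to 2.98 CPM in the high set (median 2.40), against 0.603 to 2.25 CPM in the low set (median 0.673), and control 8 stood inside the range of the high set.

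**Figure D2:**
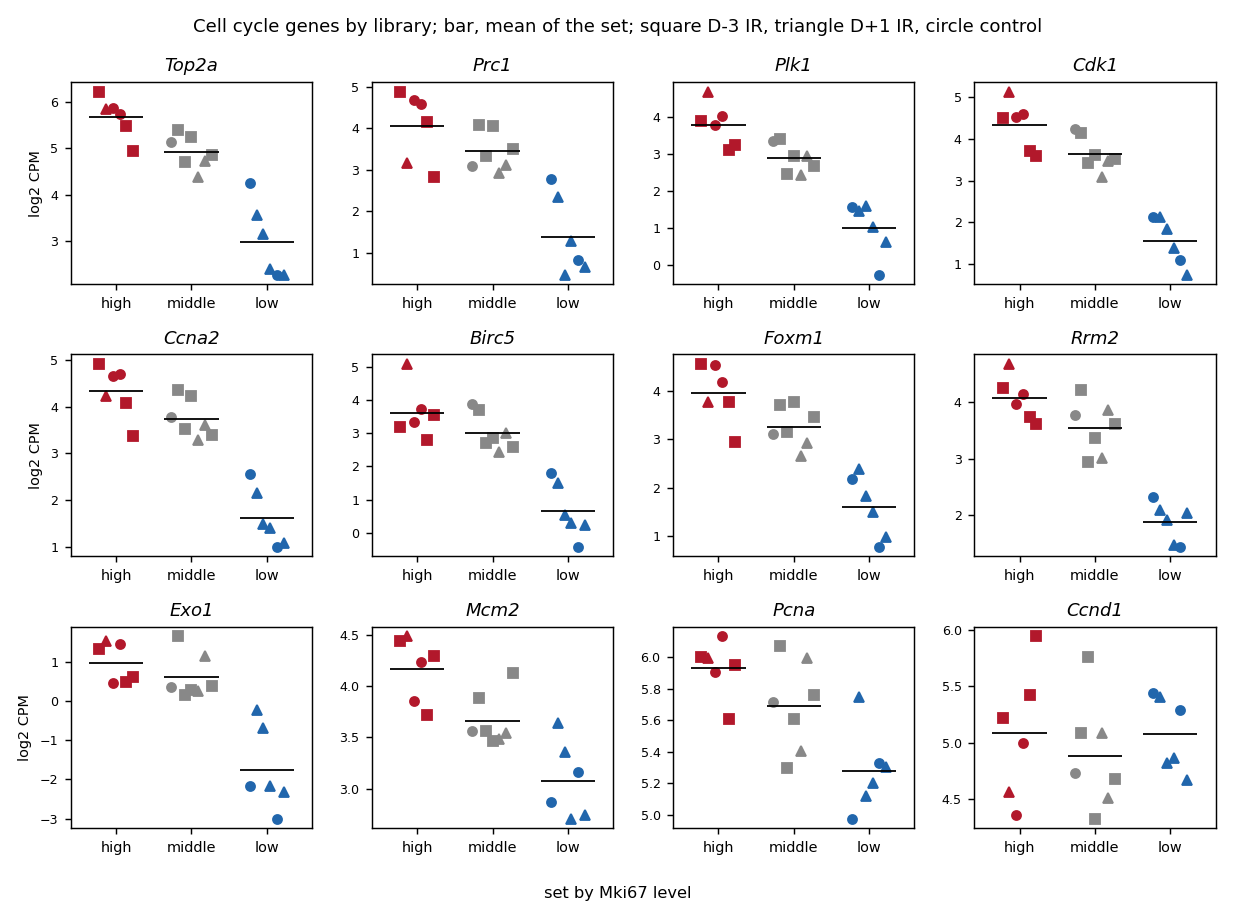
Log2 CPM (vertical axes, TMM-scaled, no prior count) of 12 cell cycle genes in the high, middle and low sets (horizontal axes), with 1 point for each library and a bar for the set's mean. The sets of Top2a, Prc1, Plk1, Cdk1, Ccna2, Birc5, Foxm1, Rrm2, Exo1 and Mcm2 do not overlap between high and low, while those of Pcna and Ccnd1 do.

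The promoters of Mki67, Top2a, Prc1, Plk1 and Cdk1 are printed because these genes define or lead the contrast, and Esco2 is named only. Shown are the 200 bases before the RefSeq start on GRCm38.p6, on the strand of the gene, at chr7:135716380-135716579 (minus strand) for Mki67, chr11:99024190-99024389 (minus) for Top2a, chr7:80294251-80294450 (plus) for Prc1, chr7:122159235-122159434 (plus) for Plk1 and chr10:69352913-69353112 (minus) for Cdk1. Capitals mark 3 motifs on either strand: the core of the cell cycle homology region (CHR) bound by MuvB complexes, with letters TTTGAA, the CCAAT box bound by NF-Y, and the E2F site in the spellings TTCCCGC or TTGGCGC or TTCGCGC or TTGCCGC, of which TTGGCGC may share bases with a reversed CCAAT box.
Mki67: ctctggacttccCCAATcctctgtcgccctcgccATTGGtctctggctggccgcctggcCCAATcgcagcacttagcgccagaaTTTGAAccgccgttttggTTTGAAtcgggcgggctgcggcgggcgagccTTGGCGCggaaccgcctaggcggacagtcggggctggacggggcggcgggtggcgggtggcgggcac
Top2a: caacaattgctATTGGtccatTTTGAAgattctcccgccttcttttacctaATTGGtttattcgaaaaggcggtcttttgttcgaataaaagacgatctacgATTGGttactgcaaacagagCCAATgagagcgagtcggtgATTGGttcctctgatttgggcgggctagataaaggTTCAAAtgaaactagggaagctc
Prc1: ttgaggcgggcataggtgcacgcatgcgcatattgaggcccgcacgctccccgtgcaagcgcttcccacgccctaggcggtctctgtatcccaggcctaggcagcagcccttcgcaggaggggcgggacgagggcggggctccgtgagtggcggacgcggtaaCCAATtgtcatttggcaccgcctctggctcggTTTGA
Plk1: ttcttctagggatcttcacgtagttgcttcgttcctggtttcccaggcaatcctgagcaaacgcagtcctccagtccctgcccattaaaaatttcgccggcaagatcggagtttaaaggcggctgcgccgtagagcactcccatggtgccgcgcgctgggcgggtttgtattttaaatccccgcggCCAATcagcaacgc
Cdk1: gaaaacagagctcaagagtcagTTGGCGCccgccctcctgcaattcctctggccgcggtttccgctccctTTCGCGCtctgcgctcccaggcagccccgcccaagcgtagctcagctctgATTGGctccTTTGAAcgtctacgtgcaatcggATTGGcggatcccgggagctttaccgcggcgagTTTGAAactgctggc

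In the window of 300 bases (250 before the start and 50 after it), Mki67 held the CHR core at 2 places, the CCAAT box at 3 and an E2F site at 1, and Cdk1 held them at 2, 3 and 2 places. Top2a had 6 CCAAT boxes and 2 CHR cores with no E2F spelling, and Prc1 and Plk1 had 1 of each of the first 2 motifs, the CHR core of Prc1 across the start and that of Plk1 after it. Of the mitosis lists (kinases, spindle and kinetochore), 62 of 72 genes had a window, and 62.3% of their 69 windows held the CHR core, 72.5% the CCAAT box and 17.4% an E2F site. Of the replication list, 33 of 41 genes had one, and over 41 windows the shares were 19.5%, 53.7% and 65.9%. Over all 32851 windows of the table the shares were 17.9%, 37.4% and 9.57%, and over the 16139 windows of the genes tested, which cover 71.9% of those genes, they were 12.7%, 37.1% and 15.1%. These shares are a description and were not tested, and a match is a string of letters, not a bound site. For the 284 higher genes as a whole the comparison was void, since only 78.5% of them had a window.

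Of 14 inhibitors of cyclin-dependent kinases and genes of quiescence 0 were higher and 0 lower, beside 1.61% and 0.851% over all genes, with a median of -0.03 that turned to 0.03 without scaling factors. Cdkn1a, which encodes p21, had 71.1 to 168 CPM in the high set (median 114), against 55.1 to 138 CPM in the low set (median 96.3), and Cdkn1b, which encodes p27, had 40.0 to 85.1 CPM in the high set (median 61.3), against 43.7 to 78.6 CPM in the low set (median 54.3). Cdkn2a was the widest of the list with a difference of 2.46, yet at 0.494 to 2.42 CPM in the high set and 0 to 1.11 CPM in the low set it was rare in every library, and D+1 IR 3 lay inside the high range. Tob1, an antiproliferative factor, had 47.4 to 138 CPM in the high set (median 59.4), against 82.3 to 255 CPM in the low set (median 142). Cdkn1a and Cdkn1b were picked after their levels were known.

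The 19 targets of p53, which radiation induces, had a median difference of 0.12, and 1 was higher (5.26%, beside 1.61% of all genes). That gene was Ckap2, a spindle protein that is itself a mitotic gene, with 6.30 to 18.6 CPM in the high set (median 15.0), against 0.980 to 3.61 CPM in the low set (median 1.60). Phlda3, a p53-induced inhibitor of AKT, had 90.7 to 196 CPM in the high set (median 148), against 122 to 445 CPM in the low set (median 332), a difference of -0.92 with overlapping sets. Bax, the pore protein of apoptosis, differed by 0.53, and Gdf15, a stress cytokine, by 0.89, both with overlap.

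Another 162 higher genes were in no cell cycle list, and among them were Shcbp1, Pclaf, Depdc1a, Diaph3, Tacc3, Trip13, Kntc1, Polq, Hells and Skp2, which are known from dividing cells. Skp2, which marks p27 for destruction, was 3.53 to 7.82 CPM in the high set (median 5.61), against 1.66 to 3.30 CPM in the low set (median 2.33), and Lmnb2, a second B-type lamin, was 15.8 to 25.2 CPM in the high set (median 22.0), against 8.51 to 15.3 CPM in the low set (median 10.7). These and the genes of the rest of this paragraph were picked after their levels were known. P2ry6, the receptor of UDP on macrophages and smooth muscle, was 38.8 to 79.0 CPM in the high set (median 48.3), against 12.9 to 25.3 CPM in the low set (median 19.0), and Mmp14, the membrane-bound protease that activates MMP2, was 163 to 852 CPM in the high set (median 198), against 53.9 to 156 CPM in the low set (median 88.9). For Mmp14 the lowest high library, D-3 IR 15, stood only 1.04-fold above the highest low one, and D+1 IR 20 stood far above all others. Tet3 and Tet2, enzymes of DNA demethylation, were higher by 0.58 and 0.40.

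Lysosomal hydrolases, a list drawn up after values were seen, had 6 of 39 genes higher (15.4%, beside 1.61% of all genes). Ctsc, Galns and Gusb were among them, and the list's median difference was 0.34. Ctsc, the cathepsin that activates granule proteases of leukocytes, was 99.7 to 233 CPM in the high set (median 129), against 52.9 to 97.8 CPM in the low set (median 66.5). Grn, the lysosomal protein progranulin, was 296 to 1106 CPM in the high set (median 392), against 231 to 287 CPM in the low set (median 248). In Galns, Ctsc and Grn D+1 IR 20 was the highest of all libraries. The sum of macrophage genes was highest there too, while their mean log2 CPM was highest in control 9 (6.69, beside 6.58 in D+1 IR 20), and their part in this list was not tested.

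**Figure D3:**
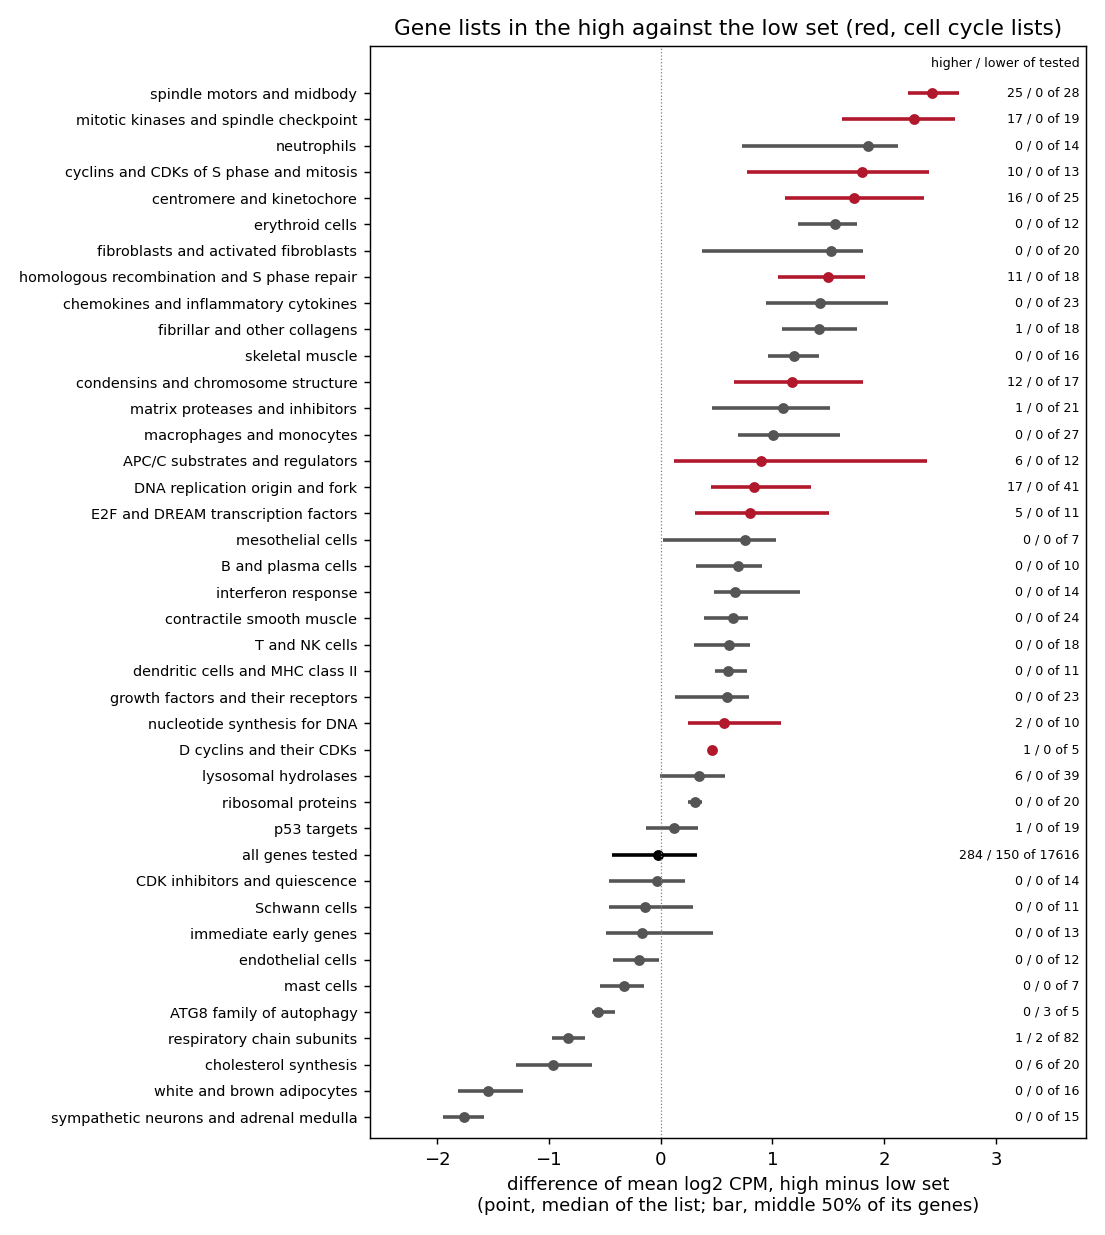
Difference of mean log2 CPM between the high and the low set (horizontal axis) for 39 gene lists and all genes tested, ordered by median (points), with bars over the middle 50% of each list's genes and the counts of higher and lower genes at the right. Of the cell cycle lists (red), spindle motors and midbody stand at the top with 2.42 above mitotic kinases with 2.26, and neutrophil genes come next with 1.86. Sympathetic neurons and adipocytes stand at the bottom with no gene whose sets parted, beside 0.851% of all genes lower.

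Genes that were lower in the high set came from other functions. The 10 with the widest gap were Rims4, A330084C13Rik, Slc1a1, Nipsnap1, Them4, Tmem132b, Fbxo44, Rap1gap, Fam69b and Tmem199. Of these, A330084C13Rik and Tmem132b were rare in every library, with at most 0.737 and 1.18 CPM, both in D+1 IR. Rims4, a protein of regulated exocytosis, showed 3.17, 3.89, 0.409, 1.46, 5.05 and 2.29 CPM in the high libraries, against 19.5, 10.0, 10.5, 11.7, 12.9 and 9.60 CPM in the low ones. All 6 high libraries were thus below the low ones, while the middle set spanned 1.37 to 7.17 CPM and stayed below the low set too. Rap1gap, which switches off the GTPase RAP1, was 3.27 to 23.3 CPM in the high set (median 10.3), against 32.1 to 60.6 CPM in the low set (median 38.9). Slc1a1, a transporter of glutamate and cysteine, was 0.171 to 1.46 CPM in the high set (median 0.729), against 2.16 to 5.78 CPM in the low set (median 2.94). Fbxo44, a substrate receptor of a ubiquitin ligase, was 4.03 to 9.79 CPM in the high set (median 7.16), against 13.5 to 23.3 CPM in the low set (median 20.1), and Nipsnap1, a mitochondrial protein, was 9.55 to 17.3 CPM in the high set (median 15.2), against 25.3 to 43.2 CPM in the low set (median 32.2). Tmem199, an assembly factor of the vacuolar proton pump, differed by only -0.70, with 9.36 to 12.3 CPM in the high set, against 16.6 to 19.2 CPM in the low set. Without D-3 IR 15 the count of lower genes was 407.

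Cholesterol synthesis genes were among the lower genes. In this list, drawn up after values were seen, 6 of 20 genes were lower (30%, beside 0.851% of all genes) and 0 were higher. All 20 had negative differences (median -0.97). Nsdhl, a demethylating enzyme late in the pathway, showed 34.6, 19.3, 16.4, 24.8, 44.3 and 19.1 CPM in the high libraries, against 88.6, 53.3, 64.2, 79.6, 64.4 and 71.3 CPM in the low ones. Dhcr7, which makes cholesterol in the last step, was 9.29 to 23.1 CPM in the high set (median 17.5), against 28.0 to 64.7 CPM in the low set (median 38.0). Sc5d, which acts just before it, was 31.3 to 66.7 CPM in the high set (median 48.6), against 86.3 to 136 CPM in the low set (median 102), and Lss, which closes the sterol rings, was 10.3 to 30.3 CPM in the high set (median 15.8), against 36.5 to 66.0 CPM in the low set (median 38.3). The other 2 were Hmgcs1, of the start of the pathway, with a difference of -0.98, and Tm7sf2, a sterol reductase, with -0.96. The genes summed to 487 to 818 CPM in the high set, against 1160.0 to 1801 CPM in the low set. The list was drawn up from values of these same libraries, so that sums that part are a description and add no support. The middle set lay nearer the high set here: the list's mean log2 CPM was 4.23 to 5.10 in the middle libraries, 4.12 to 4.84 in the high ones and 5.01 to 5.97 in the low ones.

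The ATG8 family, whose products coat the membranes of autophagosomes and which was also listed after values were seen, had 3 of 5 genes lower (60%, beside 0.851% of all genes). Gabarapl1 was 124 to 187 CPM in the high set (median 138), against 209 to 359 CPM in the low set (median 246), Map1lc3a was 115 to 164 CPM in the high set (median 139.6), against 186 to 311 CPM in the low set (median 193), and Gabarapl2 differed by -0.56. Map1lc3b had overlapping sets, with a difference of -0.41. The 5 genes summed to 717 to 969 CPM in the high set, against 992 to 1326 CPM in the low set, again a description of a list chosen on these values.

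Adipocyte genes, of tissue around the wall, lay lower on average in the high set. All 16 tested genes of white and brown adipocytes had negative differences (median -1.55), and 0 were called lower, beside 0.851% of all genes. With so small a share, a count of 0 in 16 genes does not set this list apart. Without control 6 that median was -1.02. They summed to 1093 to 10463 CPM in the high set, against 4304 to 28371 CPM in the low set. Ucp1, the uncoupling protein of brown fat, was 2061 CPM in D-3 IR 15 of the high set and only 328 and 306 CPM in D+1 IR 17 and control 8 of the low set, which broke the order. In whole tissue fewer cells of a type and less RNA per cell cannot be told apart. The respiratory chain, a list drawn up after values were seen, went the same way, with 78 of 82 subunits negative (median -0.83). Of the 82 subunits 2 (2.44%) were lower and 1 (1.22%) higher, beside 0.851% and 1.61% of all genes. Mitochondrial transcripts had a median of 7.49% of counts in the high set and 14.3% in the low set.

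Sympathetic neuron and adrenal medulla genes were also lower on average, with 15 of 15 negative (median -1.76) and 0 without overlap, beside 0.851% of all genes lower. Leaving out 1 library moved that median to between -3.11 (without D+1 IR 2) and -0.74 (without control 6). They summed to 143 to 2536 CPM in the high set, against 30.1 to 9113 CPM in the low set. Snap25, of the release of vesicles at synapses, was 0.301 CPM in D+1 IR 2 of the low set, below every high library, and 493 CPM in control 8, above every high library. Rims4, the lower gene with the widest gap, did not share this break, since D+1 IR 2 had 9.60 CPM. Whether fat or nerve tissue around the vessel took part in the lower genes was not tested.

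Leukocytes and matrix lay higher on average, again with overlap. Of 27 macrophage and monocyte genes 26 had positive differences (median 1.00) and 0 were called, beside 1.61% of all genes higher. Their sum was 955 to 5810.0 CPM in the high set, against 766 to 1545 CPM in the low set, with the highest sum in D+1 IR 20. Cd68, of macrophage lysosomes, had 190.4 and 112 CPM in D+1 IR 20 and control 9 of the high set. In control 6, also of the high set, Cd68 was 10.9 CPM, below the 11.5 to 30.9 CPM of the low set. Neutrophil genes summed to 19.8 to 1416 CPM in the high set, against 12.4 to 79.1 CPM in the low set (median difference 1.86, 14 of 14 positive), with the highest sum in control 9, and the median was 1.16 without control 9. The part of leukocytes in the cell cycle genes was not tested.

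All 18 collagen genes had positive differences, with a median of 1.42, and 1 was higher (5.56%, beside 1.61% of all genes). That gene was Col11a1, a minor fibril collagen, with 7.51 to 50.7 CPM in the high set (median 11.5), against 0.703 to 7.21 CPM in the low set (median 3.68). Col1a1, the main chain of type I collagen, had 2646 to 16568 CPM in the high set (median 11277), against 424 to 7913 CPM in the low set (median 3721), with D-3 IR 10 and control 6 inside the low range. Timp1, an inhibitor of matrix proteases, had 81.7 to 740.1 CPM in the high set (median 85.3), against 15.6 to 196 CPM in the low set (median 26.9), and D+1 IR 17 stood apart in the low set. Contractile smooth muscle genes had a median of 0.64 with 22 of 24 positive, which ran from 0.28 without D+1 IR 3 to 1.08 without D+1 IR 20, and Acta2 reached 18521 CPM in control 6 and 1510.1 CPM in D+1 IR 20, both of the high set. Endothelial genes differed little (median -0.20, 2 of 12 positive, and -0.35 to -0.03 with 1 library left out). Ribosomal proteins had positive differences in 20 of 20 genes, with a median of 0.30 (0.17 to 0.50 with 1 library left out), and 0 were called, beside 1.61% of all genes higher.

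Matrix proteases and their inhibitors had 1 of 21 genes higher, Mmp14 (4.76%, beside 1.61% of all genes). The other lists held 0 genes whose sets parted, beside 1.61% higher and 0.851% lower over all genes. Fibroblast genes had a median of 1.52, skeletal muscle genes of 1.19, and erythroid genes of 1.56, while T and NK cells, B and plasma cells, dendritic cells, mast cells, Schwann cells, mesothelial cells, immediate early genes, interferon response genes, chemokines and growth factors lay between -0.33 and 1.43. With 1 library left out, the fibroblast median ran from 0.98 (without D+1 IR 3) to 1.86 (without D-3 IR 10) and the skeletal muscle median from 0.22 (without D-3 IR 10) to 1.91 (without D+1 IR 3). Without D-3 IR 10, D-3 IR 15 and D+1 IR 3 the skeletal muscle median was -0.50. T and NK cells ran from 0.01 to 1.24, B and plasma cells from -0.14 to 1.34, dendritic cells from 0.18 to 1.03, mesothelial cells from 0.37 to 1.46 and interferon response genes from 0.29 to 0.94. Erythroid genes summed to 289 to 7171 CPM in the high set, against 151 to 3971 CPM in the low set, and the ranges overlapped.

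**Figure D4:**
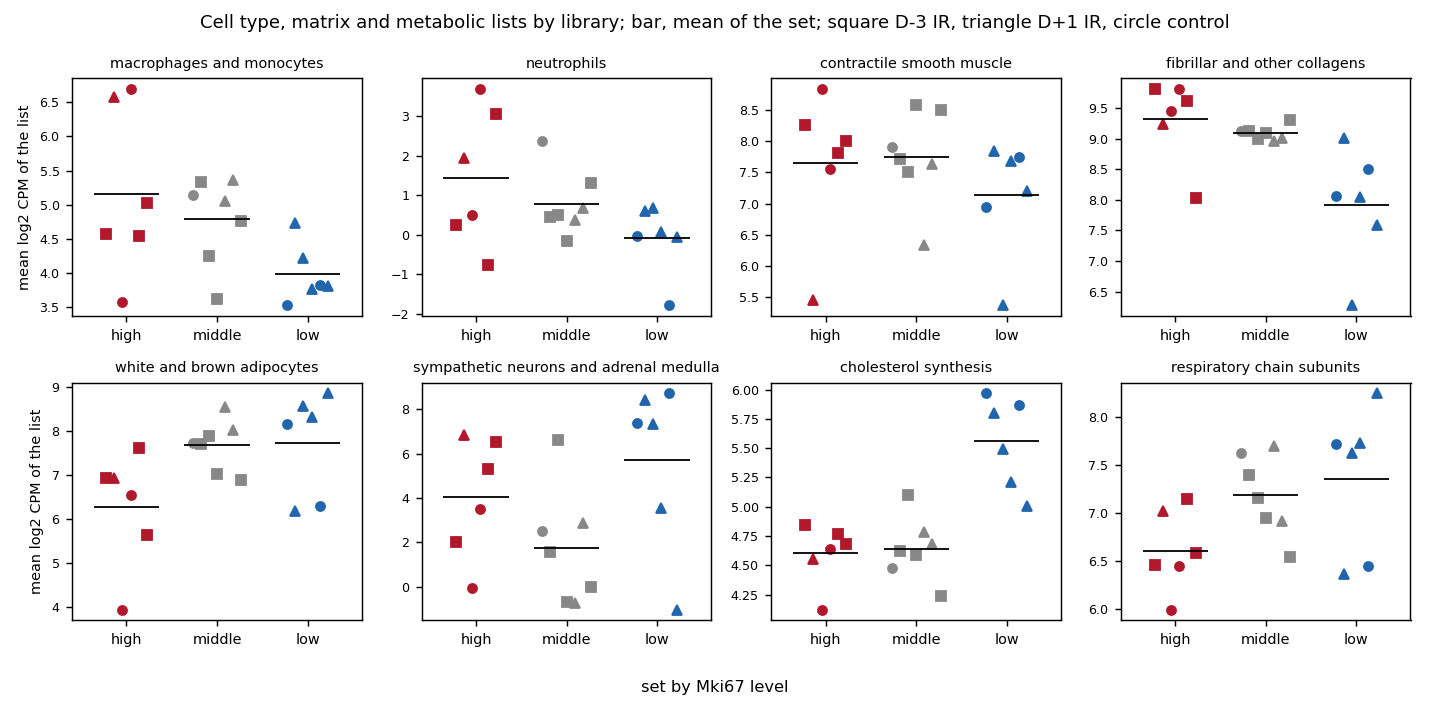
Mean log2 CPM (vertical axes) of the genes of 8 cell type, matrix and metabolic lists in the high, middle and low sets (horizontal axes), with 1 point for each library and a bar for the set's mean. Cholesterol synthesis, a list drawn up after values were seen, parts the sets, at 4.12 to 4.84 in the high and 5.01 to 5.97 in the low libraries. In the other 7 lists the sets overlap.

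The 7 middle libraries, which the contrast had not used, were asked whether genes follow Mki67 among themselves. Mki67 spanned only 1.40-fold there, from 21.9 to 30.8 CPM before TMM scaling. Scaled as in the regression, it ran from 21.3 CPM in D+1 IR 18 to 32.4 CPM in control 5. A regression on log2 Mki67 by edgeR's quasi-likelihood test called 0 of 17616 genes (0%) at an adjusted p of 0.05, with 848 genes (4.81%) at an unadjusted p under 0.05, and DESeq2 called 19. Top2a had a slope of 0.98 (SE 0.51, adjusted p = 0.947 by edgeR), and Prc1 one of 0.93 (SE 0.79, adjusted p = 0.967), where 1 would be a change in step with Mki67. Leaving out 1 library moved the slope of Prc1 to between 0.51 (without D-3 IR 14) and 1.60 (without control 5). All 28 spindle genes and 18 of 19 mitotic kinase genes had positive slopes (medians 0.90 and 0.91), beside 8880 of all 17616 genes (median 0.01), while 15 of 41 replication genes did (median -0.11). Over all cell cycle lists 153 of 199 were positive, with a median of 0.55 and 10 at an unadjusted p under 0.05 (5.03%, beside 4.81% of all genes). Of the respiratory chain 81 of 82 subunits had positive slopes, the opposite of the contrast, and cholesterol synthesis had 12 of 20. Among the lists of other functions 0 genes were called either, yet immediate early genes (0 of 13 positive, 6 at an unadjusted p under 0.05) and interferon response genes (13 of 14 positive, median 2.84, 6 under 0.05) held more small p than the 4.81% of all genes. So did T and NK cells (3 of 18 positive, 6 under 0.05), neutrophils (9 of 14, 4 under 0.05) and B and plasma cells (1 of 10, 2 under 0.05). The respiratory chain had 19 of 82 under 0.05, while contractile smooth muscle, fibroblast and collagen genes had 0. All 16 skeletal muscle genes had positive slopes (median 5.74, 7 under 0.05) and all 7 mesothelial genes negative ones (median -5.52, 3 under 0.05). The part of these in the slopes was not tested. The 5 genes with the smallest p were Gm10277, Cd59a, Man2a1, Gm38211 and Nlrp6, each at an adjusted p of 0.947 by edgeR and none of them in a cell cycle list. With so narrow a range of Mki67 a count of 0 does not show that no gene follows it.

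No difference in proliferation genes between treatments passed the test, while libraries of 1 treatment differed widely. As TMM-scaled CPM, Mki67 averaged 36.6 ± 16.2 CPM in D-3 IR (SD, n = 7), 18.8 ± 17.5 CPM in D+1 IR (n = 7) and 29.8 ± 20.2 CPM in control (n = 5). Its log2 fold change was 0.30 (SE 0.60, adjusted p = 1.00 by edgeR) in D-3 IR against control, -0.66 (SE 0.59, adjusted p = 0.730) for D+1 IR over control, and 0.96 (SE 0.55, adjusted p = 0.475) for D-3 IR over D+1 IR. None of these passed the threshold, and 1 D+1 IR library, D+1 IR 20, reached 53.9 CPM while the other 6 stayed at or under 26.6 CPM. Top2a gave 0.26 (SE 0.59), -0.81 (SE 0.58) and 1.07 (SE 0.54), and Prc1 gave 0.22 (SE 0.58), -1.39 (SE 0.57) and 1.62 (SE 0.54) in the same order of comparisons, with adjusted p from 0.409 to 1.00 by edgeR.

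Over all genes 0 of 17617 (0%) were called by edgeR in each of the 3 treatment comparisons, with 232, 1253 and 2018 genes at an unadjusted p under 0.05, and DESeq2 called 0, 2 and 10. The comparisons share libraries, so that their values are set side by side only. In D-3 IR against D+1 IR 183 of the 199 cell cycle genes had positive log2 fold changes (median 0.55), with 38 at an unadjusted p under 0.05 (19.1%, beside 11.5% of all genes) and 0 called. Lists of other cells moved in that comparison as well: 23 of 24 contractile smooth muscle genes were positive (median 1.12, 18 at an unadjusted p under 0.05), as were 10 of 12 erythroid genes (median 2.76, 10 under 0.05) and 16 of 16 skeletal muscle genes (median 3.16, 8 under 0.05), with 0 called, and their part in the cell cycle values was not tested. For D+1 IR over control 30 of 199 were positive (median -0.39), and for D-3 IR over control 141 of 199 (median 0.11). The 28 spindle genes had medians of 0.10 in D-3 IR against control, -0.99 for D+1 IR over control, and 1.02 for D-3 IR over D+1 IR, again with 0 called. When each treatment's mean was first taken away, the 199 cell cycle genes had a median difference of 1.11 between the high and the low set, and 41 of them were higher in each high library than in every low one. The sets remained those chosen by Mki67, so that these values are a description and do not weigh treatment against the contrast.

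**Figure D5:**
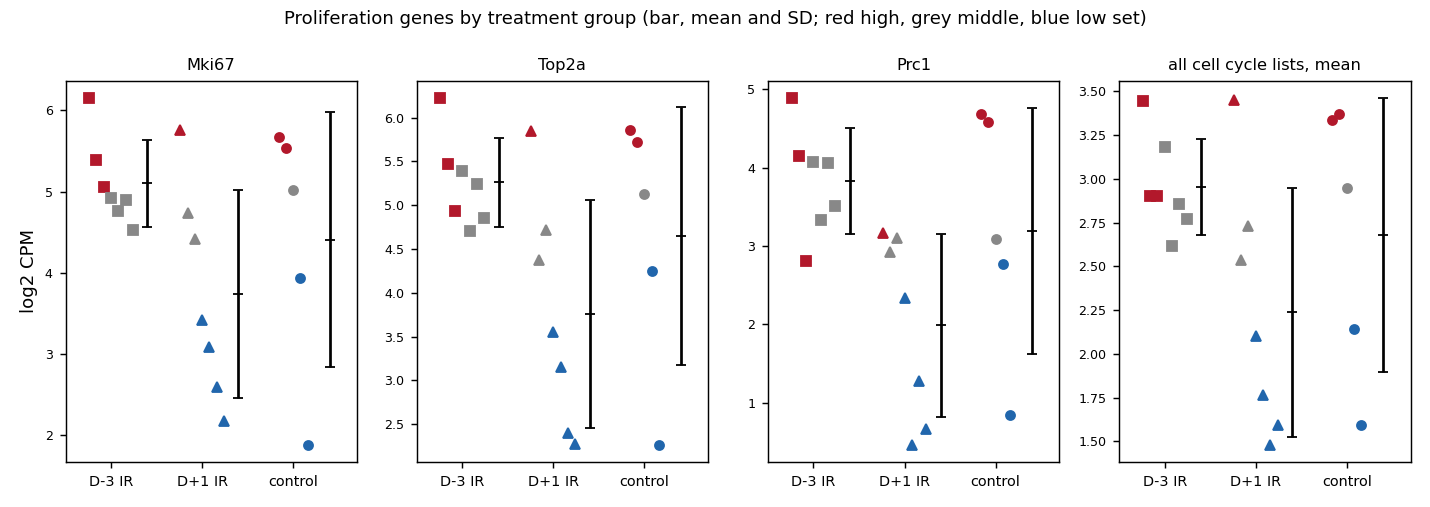
Log2 CPM of Mki67, Top2a and Prc1 and the mean log2 CPM of all cell cycle lists (vertical axes) in D-3 IR, D+1 IR and control libraries (horizontal axes), with 1 point for each library in the color of its set and bars for mean and SD. Mki67 spans 23.0 to 70.8 CPM in D-3 IR, 4.52 to 53.9 CPM in D+1 IR and 3.70 to 51.1 CPM in control libraries, before the log is taken.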

How the data were processed

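Poly(A) RNA of abdominal aortas was sequenced in 19 libraries, 1 per mouse. Per the labels, the authors aligned reads to GRCm38 with STAR 2.7.9a and checked them with FastQC, and they deposited whole-number counts per gene (55414 genes) with unstranded and single-strand columns. The unstranded counts were used. The kit marks strand, yet the column of the second strand held 49.9% to 50.1% of both single-strand columns, so that reads of overlapping and antisense genes cannot be told apart, A330084C13Rik among them. Libraries held 25839001 to 97083681 counts in genes, and p-values measure the spread between mice. No pair of libraries of 1 treatment agreed within sampling noise.

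Genes were filtered with filterByExpr of edgeR 4.0.16 (R 4.3.3), which left 17617. Log2 CPM used TMM factors and a prior count of 2. Fold changes between the sets are differences of mean log2 CPM and carry no test, since the sets had been chosen by Mki67. Slopes in the middle libraries and the 3 treatment comparisons were tested with edgeR's quasi-likelihood F-test (design without intercept for treatments, two-sided, Benjamini-Hochberg), with DESeq2 1.42.0 and limma 3.58.1 as alternatives, after tests on simulated data. Symbols were matched for 52081 of 55414 IDs, and promoters came from RefSeq.

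The members and 35 lists were chosen with earlier results of these data known, and 4 lists (cholesterol synthesis, ATG8 family, lysosomal hydrolases, respiratory chain) after the values were seen. Named were Mki67, Top2a and Prc1, up to 4 genes a list with the largest difference, the 10 widest gaps each way and the 5 smallest slope p. All other genes, among them Anln, Acta2, Col1a1, Cd68, Ucp1, Grn and Mmp14, were chosen after their values were seen. A few genes that the rule names are not reported here.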

Additional observations from a re-analysis of the deposited data

Results flagged for a closer look

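Among 145 groups of 5 to 7 values tested with Dixon's criterion, 5 held a library far from the others, and chance alone flags about 1 in 20 groups. Mmp14, a membrane-bound matrix protease, was 9.74 on the log2 CPM scale in D+1 IR 20 of the high set, where the other 5 libraries lay between 7.35 and 8.02. Acta2, smooth muscle actin, was 10.6 in the same library, where the others lay between 12.9 and 14.2. Timp1, a protease inhibitor, was 7.62 in D+1 IR 17 of the low set, where the others lay between 3.97 and 4.96. Control 6 of the high set was low for Hmgcs1, of cholesterol synthesis, with 5.97 against 6.56 to 6.89 in the others, and for Adipoq, the adipocyte hormone adiponectin, with 4.42 against 7.26 to 8.83. Over 68 genes compared between control and D+1 IR libraries, 0 had opposite directions in every library. For the genes whose sets parted this was fixed in advance.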

How the results depend on the processing

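No paired analysis was possible because the treatments share no replicate numbers and each mouse gave 1 library. The 284 higher and 150 lower genes became 441 and 206 with 5 libraries a set, 86 and 13 with 7, 265 and 90 without scaling factors, 84 and 21 with each treatment's mean taken away, 427 and 278 without D+1 IR 1, 2 and 3, and, as settings chosen after seeing the data, 481 and 244 without D-3 IR 10 and D+1 IR 3, 763 and 622 when D-3 IR 15 was left out as well, 4309 and 4650 within control libraries and 3945 and 4633 within D+1 IR libraries, where so few libraries part many genes. Leaving out 1 library gave 291 to 475 higher and 158 to 407 lower genes, since fewer libraries can only part more genes. The slope test and all 3 treatment comparisons stayed at 0 calls without any 1 library, and DESeq2 called 19 genes for the slope, 2 for D+1 IR over control, and 10 for D-3 IR over D+1 IR. In D-3 IR against control, leaving out 1 library at a time, Top2a ran from -0.02316 to 0.5385 and Prc1 from -0.05807 to 0.6069, both negative only without control 8, and the cause was not tested. Of the genes whose sets parted, 49 were followed through the settings and kept their direction. Of these, 15 still parted with 7 libraries a set, 15 with each treatment's mean taken away, 39 without scaling factors and 46 with second-strand counts. All 49 parted under every other setting. Most of those settings only left out libraries of the sets, where neither result could fail. Low counts limit genes such as Cdkn2a, Ska1, A330084C13Rik and Tmem132b.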
